A study of Mus musculus with 26 samples.

Results

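The comparison set mouse embryonic stem cells lacking HMCES against wild-type (WT) cells after 2 h with BMP4, over all genes and in each knockout line. It used 4 of the 26 libraries of the series, namely 2 HMCES-KO libraries, 1 labelled KO1 and 1 labelled KO2, and 2 WT libraries, labelled as replicates 1 and 2. All 4 came from cells of the C57BL/6 strain grown in serum medium on gelatin, and all received 10 ng/ml BMP4, so no library of this table shows the cells without the ligand. KO1 and KO2 are treated below as separate knockout lines with 1 library each. The sources used here give neither the edit in the gene nor whether a line is 1 clone, and no label says that the WT libraries came from separate cultures. Other tables of the series held the same genotypes after 2 h with 50 nM LDN193189, an inhibitor of BMP type I receptors, with 50 ng/ml activin A, or with 10 µM SB431542, an inhibitor of the activin and Nodal type I receptors, and untreated cells. The labels of the untreated HMCES-KO libraries, whose columns are named K81 and K82, do not tie them to KO1 or KO2. Nor do they say whether these libraries came from 1 line or from both. The untreated WT columns carry the name CCE, which no label explains, so a different WT source there cannot be told apart from the missing treatment.

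BMP4 binds a complex of type I and type II receptors, which phosphorylates SMAD1, SMAD5 and SMAD9. With SMAD4 these enter the nucleus and switch on the Id genes, whose proteins bind helix-loop-helix transcription factors and keep them from DNA. In mouse embryonic stem cells grown in serum, BMP signalling through Id proteins helps to hold back neural differentiation. HMCES binds abasic sites in single-stranded DNA and is also known as a protein that binds 5-hydroxymethylcytosine, and the series asks how its loss shifts the balance between Nodal/activin and BMP transcription.

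The BMP4 table listed 13468 genes in TPM, a level per length of transcript scaled to 1000000 in each library. Of these, 12608 were tested, and the other 860, of which 5 had a mean of at least 5 TPM, were either not listed in all 4 treated tables or under 1 TPM in nearly all treated libraries. Whole reads recovered from the TPM came to 5114147 and 5073222 in KO1 and KO2, against 4245836 and 4442265 in the WT libraries. All 7 embryonic stem cell markers were present, at 33.0 to 7820 TPM, while the summed TPM of the 2-cell-like markers was 0.446 and 3.51 in KO1 and KO2, against 1.63 and 1.83 in WT. The 2 HMCES-KO libraries lay further apart than the 2 WT libraries, with a median absolute log2 difference of 0.228 between KO1 and KO2 and of 0.148 between the WT replicates over 9288 genes.

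The targeted gene came first as a check of the labels. Hmces, on chromosome 6, had 333 and 177 TPM in KO1 and KO2, against 507 and 531 TPM in WT, from 1501 and 809 reads in the lines and 1880 and 2047 in WT. Both lines lay below both WT libraries, at 64.1% of the WT mean in KO1 and 34.0% in KO2. Each line differed from WT, by -0.64 log2 units in KO1 (adjusted p = 0.00062) and -1.55 in KO2 (adjusted p = 4e-06), by limma with the spread of the WT pairs. The lines also differed from each other, by -0.91 log2 units for KO2 minus KO1 (adjusted p = 0.0017). Because of that spread the mean of both lines, -1.09 ± 0.42 (SE), did not pass the test (limma, adjusted p = 0.14). Since the edited position is not known here, the transcript level does not show whether protein was made. On chromosome 6 as a whole, KO1 also had a lower median, as given further on.

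The BMP target genes Id1, Id2 and Id3 were the members of the BMP list that were called higher. Id1, on chromosome 2 at 152736251 to 152737410 of mm10, had 3082 and 4369 TPM in KO1 and KO2, against 1246 and 1263 TPM in WT. Both lines lay far above WT, and the WT replicates were nearly equal. The difference was 1.55 ± 0.15 log2 units (SE, 2 libraries a group; limma with Benjamini-Hochberg adjustment, adjusted p = 0.00026), and it passed the test under all 24 alternative settings tried. Id2, on chromosome 12, had 328 and 582 TPM in KO1 and KO2, against 168 and 156 TPM in WT, a difference of 1.43 ± 0.22 (limma, adjusted p = 0.0031). Id3, on chromosome 4, had 363 and 579 TPM, against 172 and 208 TPM in WT, a difference of 1.28 ± 0.19 (limma, adjusted p = 0.0031). In these genes KO2 was the higher of the lines. KO2 exceeded KO1 by 0.50 log2 units for Id1 (adjusted p = 0.0099) and by 0.83 for Id2 (adjusted p = 0.031), while 0.67 for Id3 did not pass (adjusted p = 0.057), all by limma on 1 library of each line. These differences between the lines missed the threshold in 2 of 21 alternatives for Id1 and in 4 of 21 for Id2. With the BMP4 table fitted alone, Id2 and Id3 both missed the threshold against WT (limma, adjusted p = 0.067 each).

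The 3 genes differed in how they behaved in the other tables. Id2 lay above both WT libraries in all of them, with 274 and 279 TPM in KO1 and KO2 under activin A, against 56.1 and 55.8 TPM in WT, and with 207 and 226 TPM in untreated HMCES-KO libraries, against 52.2 and 53.4 TPM in untreated WT libraries. Id3 was also above WT in every table, but closer to it, with 132 and 173 TPM under activin A, against 99.1 and 102 TPM in WT. Id1 overlapped WT under LDN193189 and activin A. It lay above WT under SB431542, with 1891 and 1894 TPM in KO1 and KO2, against 1525 and 1568 TPM in WT, and in untreated cells, with 788 and 771 TPM in HMCES-KO libraries, against 328 and 315 TPM in WT libraries.

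**Figure D1:**
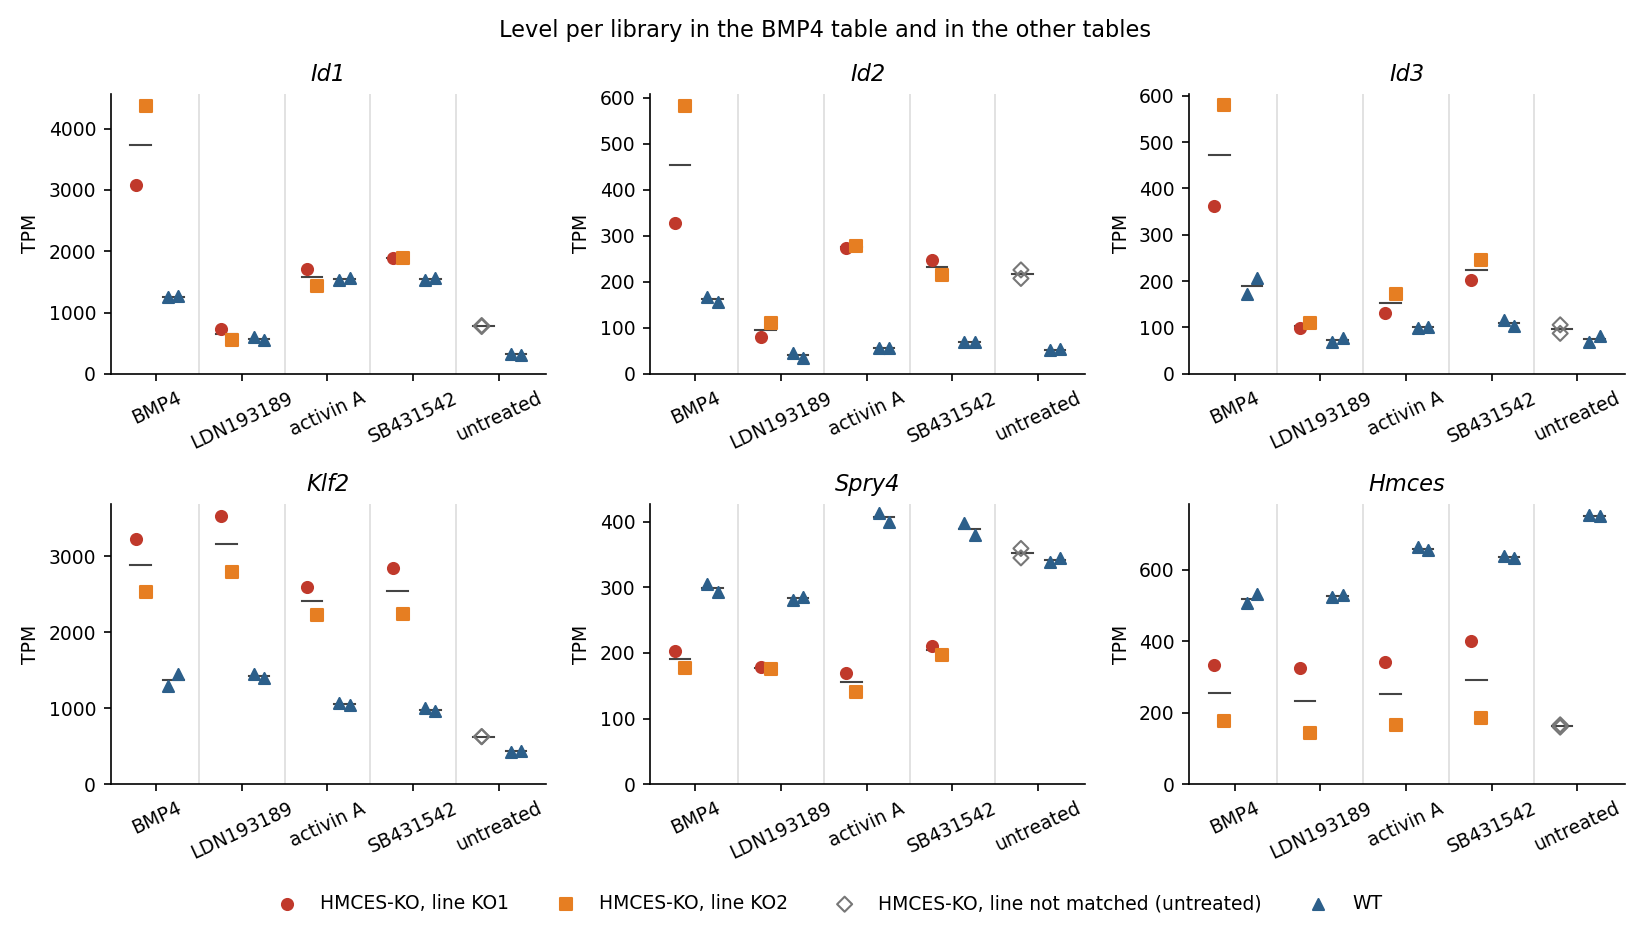
TPM of 6 genes (vertical axis, from 0) in each library of the BMP4, LDN193189, activin A, SB431542 and untreated tables (horizontal axis), with HMCES-KO libraries left of WT libraries and bars at the group means. Id1 separated from WT under BMP4, at 3082 and 4369 TPM against 1246 and 1263 TPM, and overlapped WT under LDN193189, while Klf2 lay above WT and Hmces below WT in each table. Levels are compared within a table only.

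The sequence upstream of Id2 and Id3 is shown because both genes were called higher in HMCES-KO than in WT cells under BMP4. The promoter sequences used here held no entry for Id1. Capitals mark matches to GGCGCC or GGAGCC, GC-rich words of the kind that SMAD1 and SMAD5 are known to bind, on either strand. Sequences are the 250 bases before the start site, from RefSeq on GRCm38.p6, read 5′ to 3′ on the strand of the gene; Id2 is at chr12:25096093-25096342 (minus strand) and Id3 at chr4:136143572-136143821 (plus strand).
Id2: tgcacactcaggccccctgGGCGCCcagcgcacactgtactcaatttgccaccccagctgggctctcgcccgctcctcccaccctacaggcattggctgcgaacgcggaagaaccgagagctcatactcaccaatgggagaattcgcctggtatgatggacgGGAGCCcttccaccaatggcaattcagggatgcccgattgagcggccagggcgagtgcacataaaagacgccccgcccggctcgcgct
Id3: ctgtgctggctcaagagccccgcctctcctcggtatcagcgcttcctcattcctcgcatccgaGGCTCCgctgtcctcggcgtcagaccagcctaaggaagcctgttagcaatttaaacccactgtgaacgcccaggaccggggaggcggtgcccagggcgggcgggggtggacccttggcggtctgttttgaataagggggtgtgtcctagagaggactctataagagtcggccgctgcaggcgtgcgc
The Id2 window held 1 match to each word and the Id3 window 1 match to GGAGCC, which reads GGCTCC on the printed strand. Of 32851 mouse promoter windows of the same length, 9.59% held GGCGCC, 8533 windows held GGAGCC, 31.7% held either and 3.81% held both, so a match is a description of the sequence and does not mark a site.

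Of the 14 tested members of the list of BMP SMAD1/5 targets, 3 rose, none fell and 11 were not called, against 2.13% of all tested genes called higher and 4.2% called lower. Their median difference was 0.65, against -0.06 over all 12608 genes, and it was 0.54 in KO1 and 0.89 in KO2. Id4, the fourth Id gene, had 36.4 and 45.3 TPM in KO1 and KO2, against 21.8 and 20.9 TPM in WT. Both lines lay above both WT libraries, by 0.74 in KO1 and 1.05 in KO2. For both lines together Id4 did not pass (0.90 ± 0.41; limma, adjusted p = 0.21). Smad6, an inhibitory SMAD that BMP induces, had 12.3 and 19.2 TPM, against 6.99 and 8.22 TPM in WT (0.93 ± 0.50; limma, adjusted p = 0.30). The homeobox gene Msx2 had 8.76 and 21.1 TPM, against 7.68 and 4.92 TPM in WT, and so was clearly above WT in KO2 alone. Not all members lay on the upper side. Smad7, the inhibitory SMAD shared with the Nodal branch, had 85.1 and 85.8 TPM in KO1 and KO2, against 119 and 129 TPM in WT (-0.53 ± 0.21; limma, adjusted p = 0.15). Its difference was -0.54 in KO1 and -0.53 in KO2. Dusp9, a phosphatase of ERK that BMP is known to induce, had 165 and 270 TPM, against 341 and 326 TPM in WT (-0.66 ± 0.29; limma, adjusted p = 0.20). Atoh8, Dlx5 and Smad9 were too low to test.

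Genes of the receptors, ligands and SMADs themselves showed few differences. In the TGF-beta family list 1 of 32 tested members was called, higher, against 2.13% of all tested genes called higher, and the median was -0.14. That gene was Gdf3, a ligand of the Nodal co-receptor branch that stem cells make, with 1170 and 1292 TPM in KO1 and KO2, against 808 and 815 TPM in WT (0.60 ± 0.08; limma, adjusted p = 0.0021). Bmp4 itself had 556 and 577 TPM, against 597 and 540 TPM in WT, and the groups overlapped. The type II receptor gene Bmpr2 had 8.92 and 6.52 TPM in KO1 and KO2, against 12.8 and 17.5 TPM in WT (-0.89 ± 0.29; limma, adjusted p = 0.086). Smad1, Smad4 and Smad5 had differences of -0.09, -0.13 and -0.46 and did not pass. None of the 17 tested Nodal/activin SMAD2/3 targets was called for both lines together, against 2.13% of all tested genes called higher and 4.2% called lower. Their median was 0.14 (0.03 in KO1 and 0.25 in KO2). Both lines lay above both WT libraries in 5 of these targets and below them in 3, against 21.5% and 29.9% of all tested genes. Nodal itself had 422 and 478 TPM in KO1 and KO2, against 463 and 509 TPM in WT, and the groups overlapped. Lefty2, a secreted Nodal inhibitor, had 107 and 102 TPM in KO1 and KO2, against 143 and 158 TPM in WT (-0.52 ± 0.21; limma, adjusted p = 0.17). Its difference was -0.49 in KO1 and -0.55 in KO2. Lefty1 separated the lines, with 115 TPM in KO1 and 261 TPM in KO2, against 235 and 263 TPM in WT.

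Over all genes, 268 were called higher (2.13% of the 12608 tested) and 530 lower (4.2%) in HMCES-KO cells at an adjusted p under 0.05. Only 46 of the higher and 124 of the lower calls reached a 2-fold difference on the log2(TPM + 1) scale, which understates folds of low genes. With median-ratio scaling of the columns the split was 347 higher and 390 lower, so the size of the excess of lower calls depends on the scaling. The median difference over all genes was -0.06 with the first scaling and -0.01 with the second. In every called gene both HMCES-KO libraries lay outside the range of both WT libraries. Such separation was itself common, since both lines lay above both WT libraries in 2708 genes (21.5%) and below them in 3774 genes (29.9%). The number of calls rested on single libraries. It was 158 without WT replicate 1, 133 without WT replicate 2 and 322 without KO2, where the lone library left in a group is assumed to vary like the other groups. Fitted alone, the BMP4 table gave 39 calls, all of them among the 798, with 2 residual degrees of freedom.

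A set of 28 genes, chosen after their values were seen, was called in the same direction under all 24 alternatives, 10 of them higher and 18 lower. Among the higher ones were the pluripotency factor Klf2, the neural and epiblast transcription factor Zic2 and the lipid carrier gene Apoe. Klf2 had 3232 and 2537 TPM in KO1 and KO2, against 1294 and 1449 TPM in WT (1.06 ± 0.14; limma, adjusted p = 0.0018). Zic2 had 104 and 105 TPM in the lines, against 41.1 and 39.3 TPM in WT (1.36 ± 0.13; limma, adjusted p = 0.00026), and the lines were as close as the WT replicates. Apoe had 3747 and 3889 TPM, against 2520 and 2379 TPM in WT (0.64 ± 0.10; limma, adjusted p = 0.0031). The galectin gene Lgals3 had 176 and 197 TPM in the lines, against 94.8 and 88.7 TPM in WT. Both Eif3f and Eif3i, subunits of a translation initiation factor, rose as well, Eif3f with 1152 and 1195 TPM, against 627 and 596 TPM in WT, and Eif3i with 66.6 and 69.0 TPM, against 30.8 and 29.9 TPM in WT.

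The lower members of that set included Cox8a, Cox6a1, Uqcr10, Pkm, Phlda2 and Kbtbd11. Cox8a, a subunit of cytochrome c oxidase, had 861 and 741 TPM in KO1 and KO2, against 2367 and 2344 TPM in WT (-1.56 ± 0.14; limma, adjusted p = 0.00012). Cox6a1, another subunit of that enzyme, had 298 and 324 TPM, against 612 and 617 TPM in WT, and Uqcr10, of the cytochrome bc1 complex, had 267 and 328 TPM, against 564 and 592 TPM in WT. The glycolytic enzyme gene Pkm had 602 and 648 TPM in the lines, against 1233 and 1303 TPM in WT (-1.02 ± 0.15; limma, adjusted p = 0.0028). Phlda2, an imprinted gene that restrains placental growth, had 209 and 248 TPM, against 463 and 512 TPM in WT (-1.09 ± 0.14; limma, adjusted p = 0.0013). Kbtbd11 had 20.8 and 26.8 TPM, against 80.2 and 89.5 TPM in WT (-1.80 ± 0.24; limma, adjusted p = 0.0018), the most negative difference of the 28. Cox8a, Cox6a1 and Uqcr10 have short transcripts, and whether copies elsewhere in the genome took part of their reads was not tested.

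These 28 genes were read against the other tables. Their libraries are separate, but those of the other treated tables entered the fit and the alternatives that chose the genes. KO1 and KO2 also recur in the treated tables, so agreement there is a description and not independent evidence. All 18 lower genes lay below both WT libraries under LDN193189, activin A and SB431542 as well. Of the 10 higher genes, 9 lay above both WT libraries under LDN193189, and the exception was Id1, which also made the exception under activin A. In untreated cells the picture differed. There, 6 of the 18 lower genes lay below both WT libraries, 4 overlapped them and 8 lay above them, and of the higher genes 5 lay above, 4 overlapped and 1 lay below. Cox8a had 529 and 623 TPM in untreated HMCES-KO libraries, against 510 and 499 TPM in untreated WT libraries. Klf2, Zic2, Apoe, Id1, Kbtbd11 and Phlda2 were among those that kept their side in untreated cells.

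**Figure D2:**
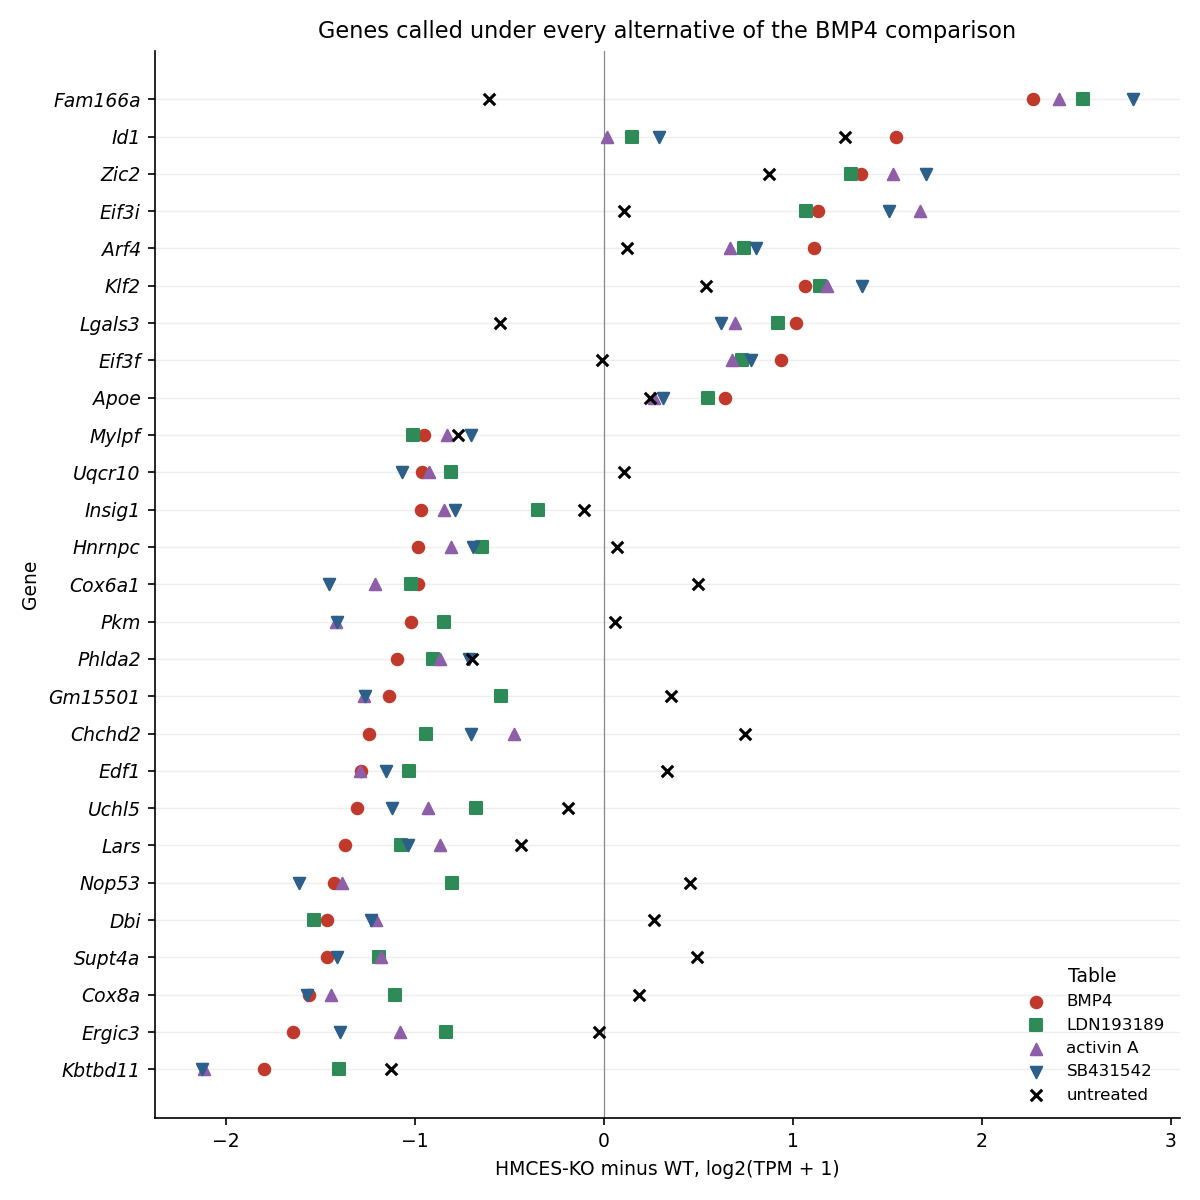
HMCES-KO minus WT on the log2(TPM + 1) scale (horizontal axis) for 27 of the 28 genes called under every alternative (vertical axis), with 1 symbol for each table and no error bars. Id1 lies at 1.55 under BMP4 and near 0 under LDN193189 and activin A, whereas Cox8a lies at -1.56 under BMP4, on the same side in the other treated tables and at or above 0 in untreated cells.

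The same held for the calls as a whole, which also came from a fit that included the other treated libraries. Of the 268 higher calls, 207 (77.2%) lay above both WT libraries under LDN193189, where 17.8% of all tested genes did, and 103 (38.4%) did so in untreated cells, where 23.7% of all genes did. Of the 530 lower calls, 440 (83.0%) lay below both WT libraries under LDN193189, against 27.7% of all genes, and 283 (53.4%) in untreated cells, against 38.7%. Under activin A the shares were 81.3% of the higher and 89.4% of the lower calls, with 25.8% and 32.2% of all genes on those sides. Under SB431542 they were 86.6% and 91.9%, with 26.8% and 30.9% of all genes. In all, 72 higher and 219 lower calls kept their side in all 4 other tables. A further 103 higher and 168 lower calls did so in the 3 other treated tables and not in untreated cells. Fam166a, a gene of the sperm tail, was one of these, with 36.4 and 29.1 TPM in KO1 and KO2, against 6.64 and 5.32 TPM in WT under BMP4 (2.27 ± 0.28; limma, adjusted p = 0.0012). In untreated cells Fam166a had 0 and 0.299 TPM in HMCES-KO libraries, against 0.268 and 1.37 TPM in WT libraries, and the groups overlapped. Gene lengths implied by the TPM matched those of the untreated count table within 5% for 32.5% of 13421 genes, and the part of gene lengths in these differences between treated and untreated cells was not tested.

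The test of whether the knockout effect itself differed between agents found little. Between BMP4 and LDN193189 no gene was called (0.0% of 12608; limma, 624 genes at an unadjusted p under 0.05), and the smallest adjusted p, 0.26, was that of Id1. Id1 had 739 and 545 TPM in KO1 and KO2 under LDN193189, against 599 and 546 TPM in WT, so its groups overlapped there. The difference between its effects was 1.40 ± 0.22 log2 units (SE). It passed once KO1 was left out of the BMP4 table or of the LDN193189 table (adjusted p = 0.02 and 0.035), and over all alternatives its adjusted p ran from 0.02 to 0.81. Id2, by contrast, had 79.1 and 110 TPM under LDN193189 in the lines, against 45.4 and 34.9 TPM in WT, and its effects under these agents differed by 0.22 ± 0.31. WT levels of Id1 were 1246 and 1263 TPM with BMP4, 599 and 546 TPM with LDN193189 and 1536 and 1563 TPM with activin A, set side by side from tables that were made separately.

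Between BMP4 and activin A the knockout effect differed in 14 genes (0.111%), with 9 effects higher and 5 lower under BMP4. Agent and table are the same split, so a difference between ligands and one between tables cannot be told apart. For Id1 the effects differed by 1.53 ± 0.22 (limma, adjusted p = 0.028), with 1707 and 1438 TPM in KO1 and KO2 under activin A, against 1536 and 1563 TPM in WT. Lefty2 ran the other way (-1.84 ± 0.30; limma, adjusted p = 0.043), with 170 and 182 TPM in KO1 and KO2 under activin A, against 66.9 and 72.5 TPM in WT. Gprc5a, an orphan receptor gene, had 81.3 and 91.7 TPM in the lines under BMP4, against 69.9 and 69.9 TPM in WT. Under activin A it had 56.0 and 76.5 TPM, against 187 and 186 TPM in WT, and the effects differed by 1.80 ± 0.20 (limma, adjusted p = 0.0067). Under SB431542, which inhibits the activin receptors, Gprc5a had 60.0 and 65.4 TPM in the lines, against 208 and 200 TPM in WT. Its knockout effect was -1.69 under SB431542 and -1.50 under activin A. That of Lefty2 was -0.11 under SB431542 and 1.33 under activin A. Bmp4 was level with WT under BMP4 and had 492 and 525 TPM in KO1 and KO2 under activin A, against 935 and 899 TPM in WT (0.85 ± 0.11; limma, adjusted p = 0.018), named after its values were seen. The count of 14 ran from 0 to 22 when any 1 library was left out. It was 0 without either WT library of the activin A table or WT replicate 2 of the BMP4 table. For Id1 the adjusted p ran from 0.0044 to 0.16 over the alternatives.

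Taken line by line, KO1 had 452 genes higher (3.59%) and 920 lower (7.3%) than WT, and KO2 had 458 higher (3.63%) and 897 lower (7.11%). These tests rest on 1 library of each line and take the spread from the WT pairs, and both share the same WT libraries. Without WT replicate 1 or 2 the calls were 782 and 792 in KO1 and 808 and 758 in KO2. Both lines were called in the same direction in 610 genes, 202 higher (1.6%) and 408 lower (3.24%), and in opposite directions in 13. Because both contrasts subtract the same WT libraries, calls in the same direction arise more easily than calls in opposite directions, and these counts are a description. A further 749 genes were called in KO1 only and 732 in KO2 only, which by itself does not show that the lines differ there. Of all 452 higher calls in KO1, 395 had KO2 above both WT libraries as well, and of the 920 lower calls 759 had KO2 below both, while KO2 lay above both WT libraries in 36.4% and below both in 43.2% of all tested genes. Of the calls in KO2, 389 of 458 higher and 809 of 897 lower ones had KO1 on the same side, where KO1 lay above both WT libraries in 34.0% and below both in 45.3% of all tested genes. The lines lay on opposite sides of both WT libraries in 1955 of the 12608 genes.

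**Figure D3:**
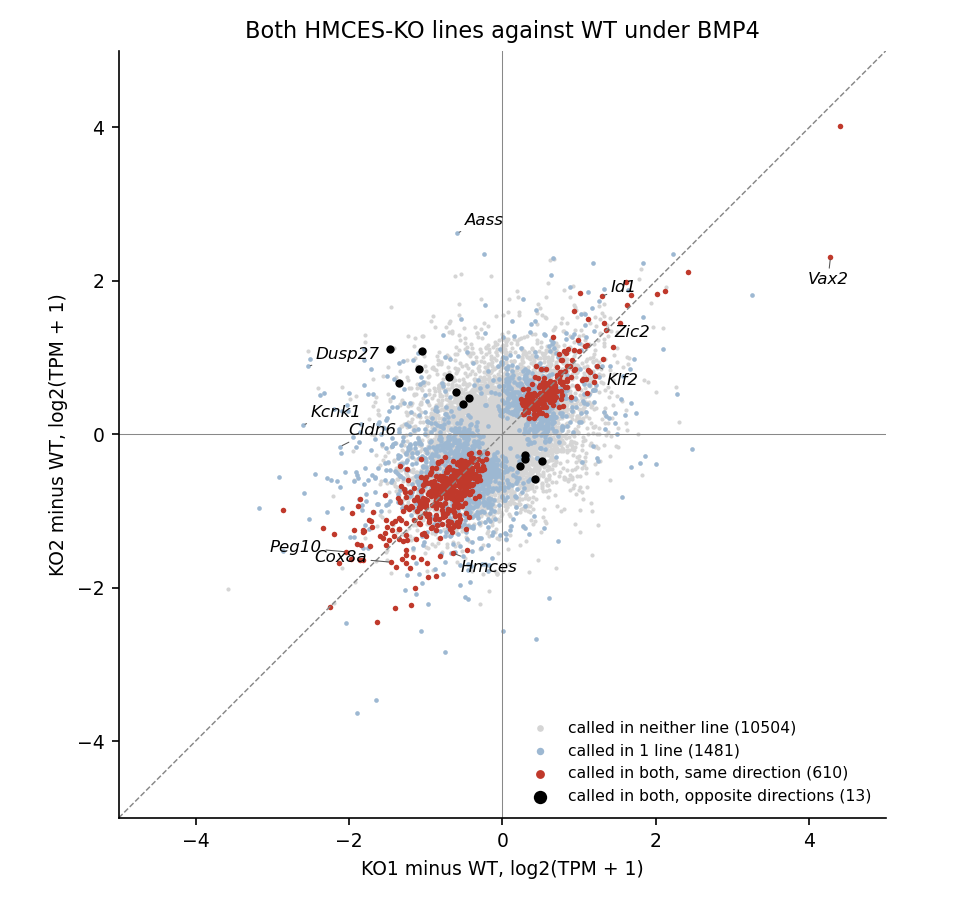
Difference from WT in KO1 (horizontal axis) and in KO2 (vertical axis) under BMP4 on the log2(TPM + 1) scale, 1 point a gene, with both lines sharing the WT libraries. The 610 genes called in both lines in the same direction lie in the lower left and upper right, and the 13 called in opposite directions are drawn in black.

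Genes that rose in both lines, among those with the largest smaller difference, included Vax2, Fam166a, Nkx2-5, Slc38a5 and Abcg1. Vax2, a homeobox gene of the ventral eye on chromosome 6, had 224 TPM in KO1 and 56.4 TPM in KO2, against 10.1 and 11.2 TPM in WT, and lay above WT in every table. Nkx2-5, a heart homeobox gene, had 8.39 and 6.94 TPM in the lines, against 1.63 and 0.786 TPM in WT (1.99 ± 0.43; limma, adjusted p = 0.016). Abcg1, a sterol transporter gene, had 9.69 and 9.05 TPM, against 2.45 and 2.95 TPM in WT (1.49 ± 0.28; limma, adjusted p = 0.01). Genes that fell in both lines included Peg10, Glo1, Col6a5 and Mmp2. Glo1 rested on few reads, 4 and 7 in KO1 and KO2, against 32 and 20 in WT. In untreated cells it had 290 and 286 TPM in HMCES-KO libraries, against 300 and 315 TPM in WT libraries. Few reads also lay behind Nkx2-5 in WT (4 and 2), Slc38a5 in WT (2 and 2) and Col6a5 in KO1 and KO2 (2 and 5). In untreated cells Nkx2-5, Slc38a5 and Abcg1 overlapped WT, Col6a5 lay below it and Mmp2 lay above it. Peg10, an imprinted gene derived from a retrotransposon and needed in the placenta, had 196 and 277 TPM in KO1 and KO2, against 797 and 809 TPM in WT (-1.78 ± 0.30; limma, adjusted p = 0.0057), and lay below WT in every table, though in untreated cells with only 386 and 380 TPM in HMCES-KO libraries, against 407 and 398 TPM in WT libraries. Without WT replicate 2 of the BMP4 table it missed the threshold (limma, adjusted p = 0.052). Pcna, the sliding clamp of DNA replication, had 20.7 and 39.1 TPM, against 98.3 and 97.8 TPM in WT (-1.75 ± 0.33; limma, adjusted p = 0.01).

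KO2 and KO1 were also tested against each other, and 189 genes were higher (1.5%) and 127 lower (1.01%) in KO2. This sets 1 library against 1, with the spread taken from the WT replicates, so a difference between lines and a difference between any separate HMCES-KO cultures cannot be told apart. Of the 798 genes called for both lines together, 22 were among them. Dusp27 had 17.8 TPM in KO2 and 0.763 TPM in KO1, with 9.91 and 8.49 TPM in WT. Kcnk1, a potassium channel gene, had 26.1 TPM in KO2 and 3.11 TPM in KO1, with 24.6 and 23.2 TPM in WT, so under BMP4 KO1 stood apart. Vrtn had 25.9 and 2.55 TPM in KO2 and KO1, with 11.4 and 11.5 TPM in WT. Under LDN193189 KO1 was again the lower line, with 8.06 TPM against 24.8 TPM in KO2 for Kcnk1 and 2.0 against 15.2 TPM for Vrtn. Under activin A Kcnk1 had 18.5 TPM in KO1 and 35.4 TPM in KO2, with 17.0 and 10.1 TPM in WT. Vrtn there had 18.5 TPM in KO1 and 15.6 TPM in KO2, so the order of the lines did not hold in every table. In the other direction Prph, a neuronal intermediate filament gene, had 7.57 TPM in KO2 and 45.3 TPM in KO1, with 18.7 and 18.3 TPM in WT. Cldn6, a tight junction gene of epiblast cells, had 142 TPM in KO2 and 36.0 TPM in KO1, with 156 and 162 TPM in WT (adjusted p = 7.1e-05 between the lines, limma). Among the 13 genes called against WT in opposite directions, named here after their values were seen, were Tagln, S100a6, Lgals1 and Gli1, all higher in KO2 and lower in KO1. Gli1, a target of hedgehog signalling, had 221 TPM in KO2 and 118 TPM in KO1, with 160 and 158 TPM in WT. The deviation of KO2 from KO1 recurred between agents, with correlations across genes of 0.23 to 0.32, against -0.02 to 0.01 for the WT replicates. Summed TPM of markers of other cell types differed between the lines too. For the 5 mesoderm markers, none above 5.54 TPM, the sum was 14.1 in KO2 and 2.49 in KO1, with 6.15 and 7.24 in WT. The trophectoderm sum was 109 in KO2 and 69.2 in KO1, with 80.6 and 75.7 in WT, and the endoderm sum 47.2 in KO2 and 35.8 in KO1, with 75.2 and 65.0 in WT. The other way round, the neuroectoderm sum was 1220 in KO2 and 1350 in KO1, with 1040 and 1010 in WT, and the fibroblast sum 626 in KO2 and 808 in KO1, with 575 and 534 in WT. A single marker reached 1210 TPM in the neuroectoderm set and 794 TPM in the fibroblast set, where 4 of 8 markers were listed. In the wider gene lists the median differences from WT were compared by line. Over 12 tested genes of primitive streak and mesoderm they were 0.02 in KO1 and 0.64 in KO2. In the same order they were -0.55 and -0.53 over 16 endoderm genes and -0.19 and 0.50 over 10 trophectoderm genes. They were 0.33 and 0.28 over 8 neuroectoderm genes and -0.31 and 0.23 over 3 fibroblast genes. Over all tested genes they were -0.06 and -0.04. Whether other cell types had a part in the difference between the lines was not tested. Without WT replicate 1 or 2 of the SB431542 table, which enter the spread, the 316 calls between the lines became 199 and 202. They became 4 without a trended prior, 18 with the BMP4 table alone and 118 with the replicate block.

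By chromosome, KO1 stood apart on chromosomes 6 and 8. Over tested genes with a mean of at least 1 TPM, the median difference from WT on chromosome 6 was -0.27 in KO1 and -0.05 in KO2. On chromosome 8 it was 0.20 in KO1 and 0.04 in KO2. Over the other 18 chromosomes the medians ran from -0.19 to 0.03 in KO1 and from -0.19 to 0.05 in KO2. Chromosome 1 had -0.19 in both lines. Of 584 tested genes on chromosome 6, 108 were called lower in KO1 and 47 in KO2, against 7.3% and 7.11% of all tested genes. Of 696 on chromosome 8, 94 were called higher in KO1 and 43 in KO2, against 3.59% and 3.63% of all tested genes. Hmces, Vax2, Peg10 and Gdf3 lie on chromosome 6 and Klf2 and Kbtbd11 on chromosome 8. Gene length moved with the difference as well. Tested genes with a mean of at least 5 TPM were put in 5 classes of equal size by exonic length. The longest genes had medians of -0.12 in KO1 and -0.23 in KO2, with 18 higher and 165 lower calls. The shortest genes had -0.04 and 0.04, with 87 higher and 115 lower calls. The part of chromosome and of length in the calls was not tested.

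**Figure D4:**
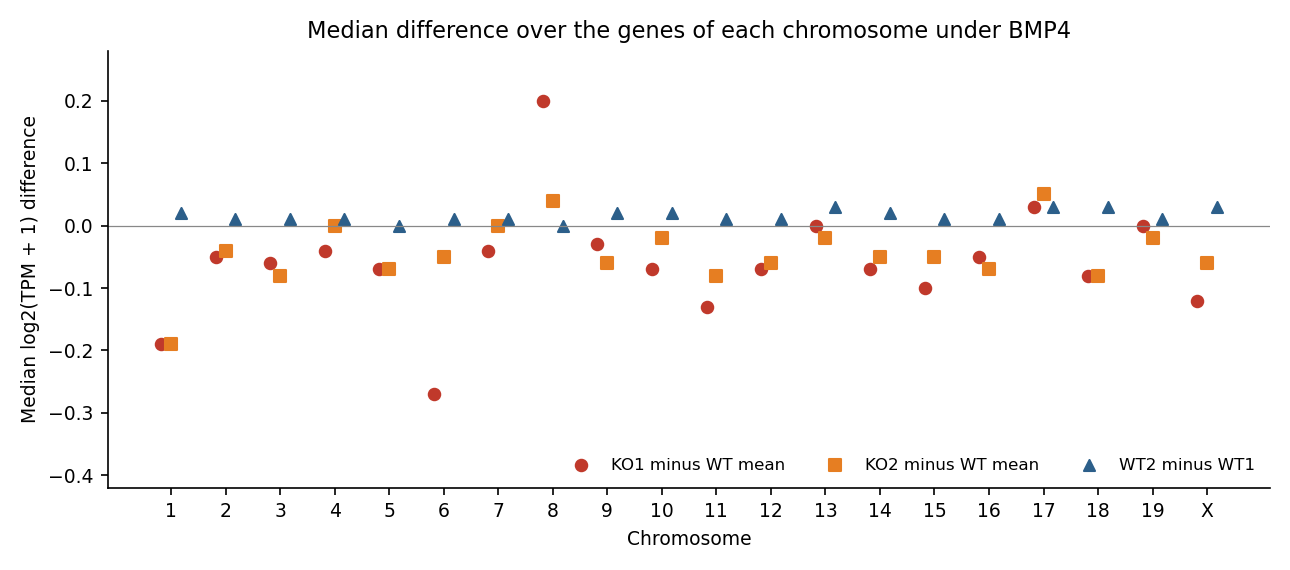
Median log2(TPM + 1) difference over the tested genes of each chromosome with a mean of at least 1 TPM (vertical axis) for KO1 minus the WT mean, KO2 minus the WT mean and WT replicate 2 minus replicate 1, by chromosome (horizontal axis). KO1 lies at -0.27 on chromosome 6 and at 0.20 on chromosome 8, while both lines lie at -0.19 on chromosome 1.

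Among pluripotency genes the Krüppel-like factors split. Of 16 naive pluripotency genes, Klf2 rose, and Klf4 and Klf5 fell, against 2.13% of all tested genes called higher and 4.2% lower. Klf4 had 532 and 400 TPM in KO1 and KO2, against 761 and 731 TPM in WT (-0.69 ± 0.14; limma, adjusted p = 0.013). Klf5 had 818 and 637 TPM, against 1106 and 1078 TPM in WT (-0.60 ± 0.11; limma, adjusted p = 0.01). All 3 kept their side in every other table. The list's median was 0.01, as the other 13 members were not called. Among 11 general pluripotency genes Trim28, a corepressor that silences retroelements, rose to 1954 and 1978 TPM, against 1561 and 1562 TPM in WT, and lay below WT in untreated cells. Zfp281, a zinc finger factor of the exit from the naive state, fell to 370 and 262 TPM, against 439 and 476 TPM in WT. Of 11 formative and primed genes, 1 rose, Zic2. Without KO2, WT replicate 1 or WT replicate 2 of the BMP4 table, Klf2 and Zic2 were still called, and none of Klf4, Klf5, Trim28 and Zfp281 was.

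Feedback genes of the FGF-ERK pathway, which drives stem cells out of the naive state, were called lower in 4 of 12 cases and higher in none, against 4.2% of all tested genes called lower, with a median of -0.20. Spred2 had 85.6 and 63.9 TPM in KO1 and KO2, against 144 and 138 TPM in WT (-0.92 ± 0.16; limma, adjusted p = 0.0068). Spry4 had 204 and 177 TPM, against 305 and 293 TPM in WT (-0.65 ± 0.10; limma, adjusted p = 0.0031). The ERK phosphatase gene Dusp6 had 185 and 176 TPM, against 255 and 254 TPM in WT, and the ETS factor gene Etv4 had 219 and 202 TPM, against 294 and 297 TPM in WT. All 4 genes lay below WT in every treated table. In untreated cells Spred2 and Etv4 lay below WT and Spry4 and Dusp6 above it. Leaving out WT replicate 2 left 1 of the 4 calls, leaving out WT replicate 1 or KO2 left 2, and the BMP4 table alone gave none.

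Genes of the basement membrane, the sheet of collagen IV, laminin and nidogen that primitive endoderm lays down, were called lower in 3 of 12 cases and higher in none, against 4.2% of all tested genes called lower, with a median of -0.50. The collagen chain gene Col4a2 had 6.11 and 6.47 TPM in KO1 and KO2, against 15.6 and 12.8 TPM in WT (-1.05 ± 0.28; limma, adjusted p = 0.044). The nidogen genes followed, Nid1 with 16.7 and 16.9 TPM, against 31.6 and 27.5 TPM in WT, and Nid2 with 184 and 192 TPM, against 255 and 254 TPM in WT. In the endoderm list 1 of 16 members was called lower, again Col4a2, while 13 of 16 lay below both WT libraries, against 29.9% of all tested genes, and the median was -0.58. That call was lost with median-ratio scaling, with the BMP4 table alone and with any 1 library of the table left out. Gata6 had 8.97 and 6.47 TPM in the lines, against 15.8 and 15.6 TPM in WT (-0.95 ± 0.46; limma, adjusted p = 0.24). The summed TPM of 7 endoderm markers was 35.8 and 47.2 in KO1 and KO2, against 75.2 and 65.0 in WT. Fewer endoderm-like cells and less RNA per cell cannot be told apart in these bulk libraries. With KO2 left out 1 basement membrane gene was called, and with any of the other 3 libraries of the table left out, or with the table fitted alone, none was. With median-ratio scaling 2 were called.

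**Figure D5:**
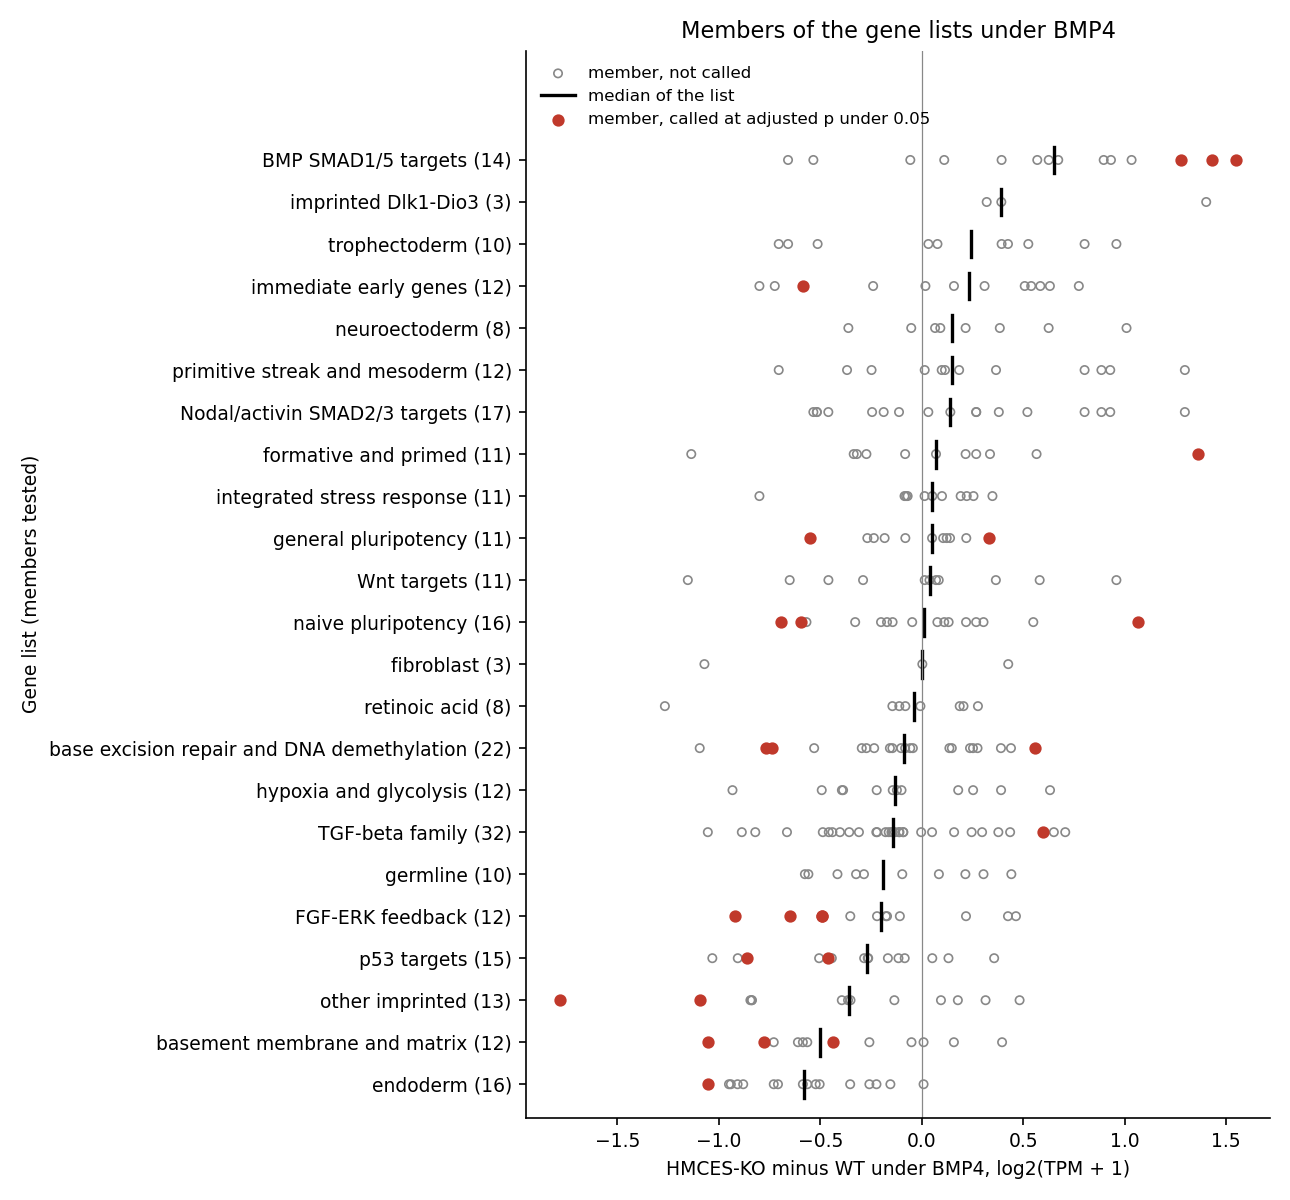
HMCES-KO minus WT under BMP4 on the log2(TPM + 1) scale (horizontal axis) for each tested member of the gene lists with at least 3 such members (vertical axis, ordered by the median), filled where called. The BMP SMAD1/5 targets have the highest median, 0.65, with 3 members called higher, and the endoderm list the lowest, -0.58, with 1 member called lower.

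Of the other lists, few members were called, against 2.13% of all tested genes called higher and 4.2% called lower. Among 22 genes of base excision repair and DNA demethylation, the pathway HMCES is linked to, the scaffold gene Xrcc1 rose to 95.4 and 95.9 TPM in KO1 and KO2, against 70.5 and 59.2 TPM in WT. Tet1, which oxidises 5-methylcytosine, fell to 54.5 and 42.3 TPM, against 79.0 and 82.6 TPM in WT (-0.74 ± 0.13; limma, adjusted p = 0.0083), and the ligase gene Lig3 also fell (-0.77 ± 0.21; limma, adjusted p = 0.0497). With median-ratio scaling 1 gene of the list was called lower, and without KO2 or either WT library none of the list was called. Among 15 p53 targets, Ccng1 fell to 68.9 and 80.2 TPM in KO1 and KO2, against 103 and 103 TPM in WT, and Trp53inp1 fell to 12.2 and 14.2 TPM, against 25.2 and 24.4 TPM in WT. The list's median was -0.27, and without KO1 or either WT library none of it was called. Among 13 other imprinted genes Peg10 and Phlda2 fell, with a median of -0.36. Of 12 immediate early genes, Myc fell, to 317 and 380 TPM in KO1 and KO2, against 541 and 502 TPM in WT (-0.59 ± 0.16; limma, adjusted p = 0.044), and with median-ratio scaling or any library of the table left out it was not called. None was called among the tested genes of primitive streak and mesoderm (12), neuroectoderm (8), trophectoderm (10), germline (10), hypoxia and glycolysis (12), the integrated stress response (11), Wnt targets (11), retinoic acid (8), the Dlk1-Dio3 cluster (3), fibroblasts (3) or 2-cell-like cells (1). Their medians ran from -0.39 to 0.39.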

How the data were processed

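Mouse embryonic stem cell RNA was sequenced after TruSeq library preparation, per the labels' protocols. The deposited BMP4 table held TPM computed by the authors for 4 libraries, and TPM tables of the other agents and of untreated cells were used beside it. The genome build was mm10, and the tools named were featureCounts 2.0.1, Bowtie2 2.3.3, DESeq2, SAMtools 1.9 and FastQC 0.11.5, per the submitters' processing notes; which steps gave the TPM, and how the listed genes were filtered, are not given in the sources used here. The deposited table of counts served only for each gene's chromosome and its exonic length in bases, per the file headers. Its 6 columns of counts were not used, because their knockout names cannot be matched to KO1 and KO2, so untreated values are TPM.

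TPM was rescaled to 1000000 over the 12928 genes common to the 4 treated tables, and log2(TPM + 1) of genes with at least 1 TPM in at least 2 of 16 treated libraries was fitted with limma 3.58.1 (R 4.3.3, trended prior). Fit 1 had 8 groups, genotype by agent. It counts KO1 and KO2 as replicates under each agent, although KO2 deviated from KO1 alike between agents (correlations 0.23 to 0.32). It also shares a spread between the WT pairs and the HMCES-KO pairs, which were wider under BMP4, so its p-values may be too small. Fit 2 had 12, with WT, KO1 and KO2 apart, so its spread comes from WT pairs. P-values were adjusted by Benjamini-Hochberg over all 12608 genes, and calls are at an adjusted p under 0.05. P-values measure the spread between libraries, which may be technical. Agent and table are the same split. Whole reads were solved from TPM steps for 99.67% of genes within 0.002 reads, as the smallest whole numbers that fit, so totals are estimates. Both steps were tested on simulated data. Same-numbered WT and HMCES-KO libraries did not deviate together (correlation -0.04 under BMP4), so numbers do not pair them.

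The 24 lists of genes, their members and the choice of genes to name were all made with earlier results of these data known. Named genes were Hmces; the 10 largest differences in each direction among called genes with a mean of at least 5 TPM; up to 10 in each direction called in both lines; up to 5 in each direction for KO2 against KO1 and for each difference between agents; all BMP, Nodal/activin and TGF-beta members; and the largest few of each other list. Called list members beyond these were named after their values were seen. Some genes that these rules select are not reported here. Alternatives were another pseudocount (0.1), no filter, a filter at 5 TPM, no trend, median-ratio scaling, the BMP4 table alone, a replicate block, a line term and each library left out.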

Additional observations from a re-analysis of the deposited data

Results flagged for a closer look

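Results are listed here because 2 effects under the same contrast differed by a direct test. The knockout effect under BMP4 exceeded that under activin A (limma, differences on the log2(TPM + 1) scale) by 4.13 for Nppb, 1.80 for Gprc5a, 1.58 for Dync1h1, 1.53 for Id1 and 1.51 for Kif15. It was below that under activin A for Snrpf (-3.06), Lefty2 (-1.84), Anp32a (-0.94) and Hmox1 (-0.68). Under SB431542 and activin A the knockout effects were -1.69 and -1.50 for Gprc5a, -1.38 and -1.27 for Dync1h1, and 0.86 and 0.90 for Hmox1. They had opposite signs for Lefty2 (-0.11 and 1.33) and Anp32a (-0.57 and 0.48). Nppb rests on low values, with 3.93 and 5.16 TPM in KO1 and KO2 under BMP4, against 0.797 and 1.53 TPM in WT. Kif15 had 17.4 TPM in both KO1 and KO2 under BMP4, against 10.1 and 9.70 TPM in WT, and 60.4 and 64.7 TPM in untreated HMCES-KO libraries, against 65.3 and 68.2 TPM in untreated WT libraries.

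KO2 and KO1 differed from each other under BMP4, with KO2 minus KO1 at 3.42 for Dusp27, 3.21 for Aass, 2.92 for Vrtn, 2.77 for Ndnf, 2.72 for Kcnk1, 0.83 for Id2 and 0.50 for Id1. The difference was -2.43 for Prph, -2.39 for Pgpep1l, -2.11 for Aga, -1.97 for Vax2, -1.76 for Catsperz and -0.91 for Hmces. Of these, Aass, Ndnf, Vax2 and Hmces lie on chromosome 6, where the median of KO1 lay lower. Aass and Ndnf were lower in KO1 than in KO2, whereas Vax2 and Hmces were higher. Kcnk1 and Aga lie on chromosome 8, where the median of KO1 lay higher. Aga was higher in KO1 than in KO2, whereas Kcnk1 was lower.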

How the results depend on the processing

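Against 798 calls for HMCES-KO over WT, limma without a trended prior gave 443, a line term (replicate block within genotype) 1353, the BMP4 table alone 39, the replicate block with numbers shared by both genotypes 919, and leaving out 1 library 133 to 1085. For the difference from the effect under LDN193189, leaving out 1 library gave 0 to 8 calls, and for that from activin A, with 14 calls, no trend gave 3, the line term 55 and leaving out 1 library 0 to 22. For KO1 against WT, with 1372 calls, no trend gave 354, the BMP4 table alone 749 and leaving out 1 library 782 to 1384. For KO2, with 1355 calls, these were 293, 667 and 758 to 1367. For KO2 against KO1, with 316 calls, no trend gave 4, the replicate block 118, the BMP4 table alone 18 and leaving out 1 library 199 to 321. The difference between the Id2 effects under BMP4 and LDN193189 ran from -0.19 to 0.63 when 1 library was left out. Pseudocount, filters and scaling kept all these counts within 1.5 times. The numbers do not pair the libraries, so the block only describes. A line has 1 library, and genes near 1 TPM carry few reads at this depth. The causes were not tested.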
